A study of Mus musculus with 7 samples.

Results

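Of 93611 genomic regions measured in mouse bone marrow-derived dendritic cells (BMDCs), 1343 (1.43%) carried strong RelB signal that was at least 2-fold above the RelA signal, and these are the member regions described here, chosen by measured values of 3 libraries. A member had 20 RPKM or more in the RelB library of wild-type (WT) cells after 1 h of lipopolysaccharide (LPS), at least 2-fold more than in the WT RelA library of that time, and at least 2-fold more than in the RelB library of RelBko cells of that time, with 0.5 RPKM added to each value. RPKM is the number of reads scaled by region length and by the library total. The members made up 8.26% of the 16266 regions that passed both the RelB threshold and the RelBko requirement, here called strong RelB regions. The other 14923 strong RelB regions failed on the RelA ratio. The requirement on the RelBko library removed no region that passed the other thresholds. Values of those libraries at the members are therefore a description, and so is any ratio that holds 1 of them. The number of members depended on the scale: 669 regions met the rule when all libraries were scaled to equal reads over the regions, and 755 when each pair was scaled to a median ratio of 1.

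The NF-kB transcription factors are dimers of Rel proteins, RelA and RelB among them. RelA, usually paired with p50, is released from its inhibitor soon after an inflammatory signal such as LPS, whereas RelB pairs with p50 or p52 and is known from the noncanonical pathway and from the maturation of dendritic cells, where it is abundant. Both recognise kappaB sites, so that many sites can be bound by either. Chromatin immunoprecipitation (ChIP) with sequencing reads how much DNA of a region an antibody recovers.

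Cells were grown from marrow of C57BL/6 mice with 20 ng/ml of GM-CSF and 10 ng/ml of IL-4, which all groups share, and each group held 1 library. RelA ChIP covered RelBko cells and WT cells after 1 h of LPS at 10 ng/mL. RelB ChIP covered RelBko cells and WT cells after 1 h of the same LPS dose, and RelBko cells and WT cells before stimulation (0 h). Input DNA came from WT cells, with no time or treatment in the labels. The labels describe RelBko only as a genotype, with no allele, Cre or age. The treatment text names a CpG oligonucleotide product beside LPS, and the extraction text names an anti-RelA antibody also for the RelB libraries, whose own label gives an anti-RelB antibody. A RelA library at 0 h and a RelA library of cells without RelA were not analysed here. ChIP signal near a gene is not its expression, so the labelled cell type could not be checked against its markers.

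The sequences below are those just before the start sites of 5 genes whose member region covered the promoter, shown to set promoters at which RelA signal was at least 2-fold lower in RelBko (Cd63 and Cx3cr1) beside promoters at which it was within 2-fold of its WT level (Il4i1, Tlr9 and C3ar1). They were chosen after their values were seen. Each is RefSeq sequence of build GRCm38.p6, written 5′ to 3′ on the strand of the gene, from 250 bases before the start site. Cd63 stands at chr10:128909095-128909344 on the plus strand and Cx3cr1 at chr9:120068297-120068546 on the minus strand. Il4i1 stands at chr7:44836038-44836287 (plus), Tlr9 at chr9:106222348-106222597 (plus) and C3ar1 at chr6:122856158-122856407 (minus). The regions themselves are given in mm9, and no sequence was read by their coordinates. Capitals mark a match on either strand to a kappaB-like motif (GGG and CC with any 5 bases between them), an AP-1 motif (TGANTCA) or a PU.1 motif (GAGGAAGT).
Cd63: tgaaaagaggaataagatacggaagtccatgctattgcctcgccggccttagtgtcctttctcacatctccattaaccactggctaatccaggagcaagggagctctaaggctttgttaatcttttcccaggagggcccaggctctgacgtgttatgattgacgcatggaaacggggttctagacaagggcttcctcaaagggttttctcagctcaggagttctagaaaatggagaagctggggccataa
Cx3cr1: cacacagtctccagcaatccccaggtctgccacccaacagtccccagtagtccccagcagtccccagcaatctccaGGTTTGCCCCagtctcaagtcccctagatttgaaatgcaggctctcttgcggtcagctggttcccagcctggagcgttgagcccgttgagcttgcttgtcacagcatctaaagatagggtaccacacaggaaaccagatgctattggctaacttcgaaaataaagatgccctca
Il4i1: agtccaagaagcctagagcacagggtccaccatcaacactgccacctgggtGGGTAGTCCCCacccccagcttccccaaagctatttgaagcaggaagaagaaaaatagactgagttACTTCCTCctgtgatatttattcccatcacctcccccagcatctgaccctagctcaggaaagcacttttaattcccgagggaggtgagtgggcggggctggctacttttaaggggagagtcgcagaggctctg
Tlr9: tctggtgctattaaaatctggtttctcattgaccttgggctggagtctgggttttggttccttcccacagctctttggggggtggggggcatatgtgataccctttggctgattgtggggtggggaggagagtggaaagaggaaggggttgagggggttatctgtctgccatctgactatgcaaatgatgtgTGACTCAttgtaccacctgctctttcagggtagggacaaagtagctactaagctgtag
C3ar1: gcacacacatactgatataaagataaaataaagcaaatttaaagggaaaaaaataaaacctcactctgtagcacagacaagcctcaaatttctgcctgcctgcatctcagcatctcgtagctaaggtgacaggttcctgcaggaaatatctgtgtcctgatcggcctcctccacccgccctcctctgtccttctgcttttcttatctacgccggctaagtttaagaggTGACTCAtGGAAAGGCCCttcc

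The member region nearest to each of these start sites lay, by its deposited distance, 54 bp from it at Cd63, 99 bp at Cx3cr1, -92 bp at Il4i1, -37 bp at Tlr9 and 9 bp at C3ar1. Cd63 encodes a tetraspanin of late endosomes, Cx3cr1 the receptor for fractalkine, Il4i1 a secreted amino acid oxidase, Tlr9 the endosomal receptor for CpG DNA and C3ar1 the receptor for complement fragment C3a. These distances run to the middle of the region, and positive ones lie after the start site. At Cd63 and Cx3cr1 the middle lay past the printed bases and past the 50 bases searched after the start. Much of these 2 members was therefore not searched, and the windows do not compare the members' own sequences. The Cd63 window held no match to the motifs searched, which says only that these letters are absent from it. Counted from the start site, Cx3cr1 had a kappaB-like match from -174 to -165. Il4i1 had a pair of overlapping ones from -199 to -189 with a PU.1 match from -133 to -126. Tlr9 had an AP-1 match from -58 to -52 and, after the printed bases, a PU.1 match from 11 to 18. C3ar1 had an AP-1 match from -22 to -16 beside a kappaB-like match from -14 to -5. There were 18 genes with a member region centred near the start site, of which 17 matched the RefSeq table and 13 had a single window. In the windows of these 13 genes, taken with 50 bases after the start, the kappaB-like letters occurred in 10, the AP-1 letters in 3 and the PU.1 letters in 2. Among all 32851 RefSeq windows of the same length, the shares were 50.8%, 7.81% and 3.2%.

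The 6 ChIP libraries held between 17485035 and 35064429 reads and the input 13188833. Reads in regions made up 37.2% of the RelBko RelA library and 37.9% of the WT RelA library, 4.62% and 7.41% of the RelBko RelB libraries at 1 h and 0 h, and 42.4% and 38.4% of the WT RelB libraries at 1 h and 0 h. The median member held 100 reads of RelA in RelBko and 91 in WT, 10 and 13 reads of RelB in RelBko at 1 h and 0 h, 365 and 437 in WT, and 5 reads in the input. With 1 library per group no difference between genotypes, antibodies or times has a replicate check, and no p-value is given. Intervals are exact 95% intervals of a ratio of reads or Wilson intervals of a share, and cover counting error only.

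Across the members, the WT RelB signal at 1 h, which chose them, ran between 20 and 217 RPKM with a median of 34.6 RPKM, close to the 32.2 RPKM of the other strong RelB regions. The WT RelA signal, which also chose them, had a median of 14.1 RPKM in the members and 27.8 RPKM in the other strong regions. RelA in RelBko cells, which the rule did not use, had a median of 11.4 RPKM in the members, 28.4 RPKM in the other strong regions and 5.43 RPKM over all regions. Signal was called enriched where it reached 2 RPKM and 2-fold over input. RelA was enriched in RelBko at 1245 members (92.7%), with 75.9% of all regions as the background, and at 99.9% of the other strong regions. In WT, whose RelA library the rule used, 1342 members (99.9%) were enriched for RelA, against 82% of all regions.

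**Figure D1:**
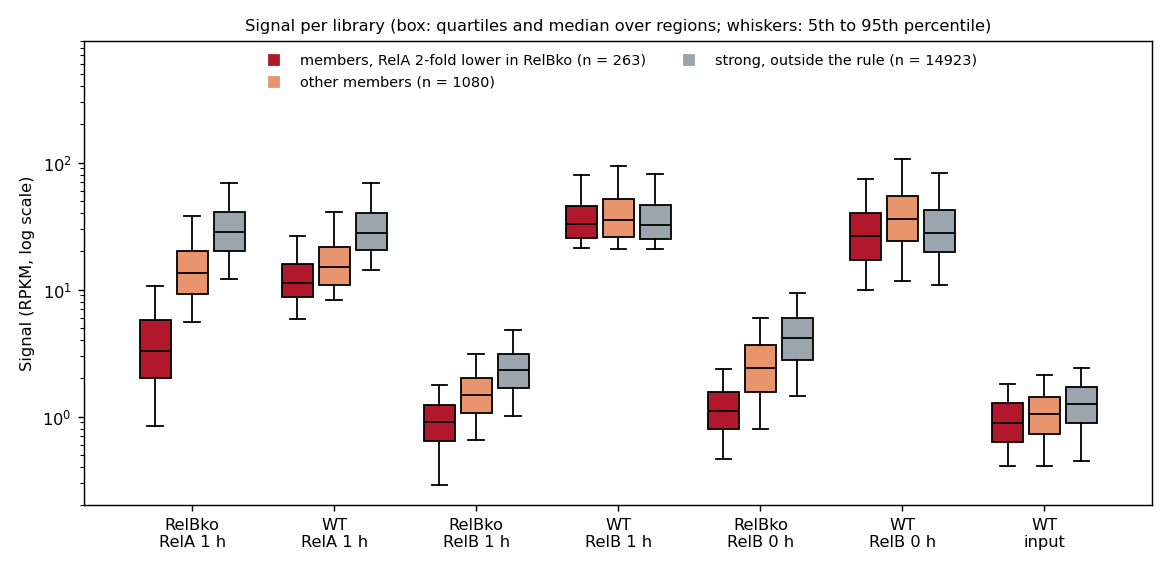
Signal (RPKM, log scale) in each of the 7 libraries for the 263 members with RelA at least 2-fold lower in RelBko, the other members and the 14923 other strong RelB regions; boxes give quartiles and median over regions, whiskers the 5th to 95th percentile. RelB in WT at 1 h has similar medians in the 3 sets (33 RPKM in the 263 members and 32.2 RPKM in the other strong regions). The 263 members have the lowest median in each of the other libraries, WT and input included. They were called by RelA in RelBko over WT, so their low RelA signal in RelBko follows from that choice.

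RelA signal was lower in RelBko more often at the members than at the other strong RelB regions. Of 1342 members compared, 263 (19.6%) had at least 2-fold less RelA signal in RelBko than in WT, against 113 of the 14923 other strong regions (0.757%) and 3994 of all 80885 compared regions (4.94%). At least 2-fold more RelA in RelBko was seen at 3 members, against 1.3% of all compared regions. The median log2 ratio of RelBko over WT was -0.31 in the members, 0.00 in the other strong regions and -0.06 over all compared regions. It was below 0 in 72.7% of the members, in 49.7% of the other strong regions and in 55.7% of all compared regions. The members ran between -1.98 and 0.39 from the 5th to the 95th percentile, and the other strong regions between -0.54 and 0.42. The lower quartile was -0.81 in the members and -0.17 in the other strong regions, and the upper quartile 0.03 and 0.17. The difference was thus largest in the lower tail and also reached the middle of the members. The rule chose members for a low WT RelA value, and that library is the denominator of this ratio, so the ratio is a description. The part of counting scatter in it was not tested. In bulk chromatin, binding in fewer cells and less binding per cell cannot be told apart.

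RelA was at least 4-fold lower in RelBko at 66 members (4.92%), against 0.067% of the other strong regions and 0.3% of all compared regions, and at least 8-fold lower at 13 (0.969%), against 0.0067% and 0.0223% of those sets. The counting interval of the ratio lay below 1 in 599 members (44.6%), among them all 263 called lower, against 15.3% of the other strong regions and 15% of all compared regions. It lay above 1 in 83 members (6.18%), against 14% of the other strong regions and 9.13% of all compared regions. At 97 members, all among the 263, RelA was enriched over input in WT and not in RelBko, and 1 further member was enriched for RelA in neither genotype and was not compared. The strong RelB regions held 376 with RelA at least 2-fold lower, of which 69.9% were members, although the members were 8.26% of the strong regions. Of all regions with lower RelA, the members made up 6.58%.

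**Figure D2:**
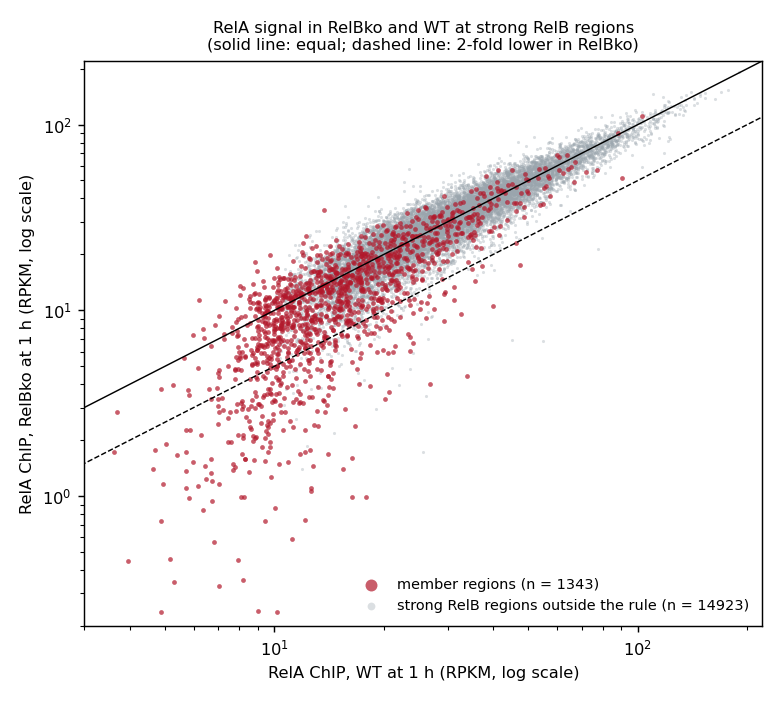
RelA ChIP signal at 1 h in RelBko (vertical) and WT (horizontal), in RPKM on log scales, for the 1343 members (red) and the 14923 other strong RelB regions (grey), with a solid line at equal signal and a dashed line at 2-fold lower in RelBko. The grey points follow the solid line, and the 263 members called lower lie below the dashed line. The call added 0.5 RPKM to each value and the line did not, so some members just below the line were not called.

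Members and other strong regions were then set side by side within ranges of WT RelA signal from 10 RPKM up. Below that the others were too few: between 7.5 and 10 RPKM they numbered 3, beside 221 members. Of those 221 members 31.7% had at least 2-fold less RelA in RelBko, as had 54.7% of 53 members between 5 and 7.5 RPKM. The members with the lowest WT RelA signal thus had no such comparison. Between 10 and 15 RPKM of RelA in WT, 19.2% of 453 members (interval 15.8 to 23.1) and 2.97% of 1044 other strong regions (2.1 to 4.18) had at least 2-fold less RelA in RelBko. Between 20 and 30 RPKM the shares were 13.8% of 224 members (9.92 to 19) and 0.609% of 4765 others (0.424 to 0.873). Between 30 and 50 RPKM they were 8.26% of 109 members (4.4 to 15) and 0.134% of 4485 others (0.0613 to 0.292). These intervals count regions within 1 library per genotype, so they are no check on a difference between genotypes. The sets were split by WT values that the rule used, so the shares are a description. Within a range WT RelA also differed, with medians of 12.2 RPKM in members and 13.5 RPKM in the others between 10 and 15 RPKM. Above 50 RPKM no member of 24 was called, where the interval reaches 13.8%, and 0.144% of 2079 others were.

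The share with lower RelA also differed with the size of the RelB over RelA ratio, whose WT RelA term is part of both measures. It was 10.2% of 898 members with a ratio of 2 to 2.5, 28.5% of 270 with 2.5 to 3, 47.9% of 140 with 3 to 4 and 77.1% of 35 with 4 to 8. Below the rule's ratio it was 2.11% of 3555 regions at 1.5 to 2 and 0.422% of 7817 regions at 1 to 1.5. Across the same ranges, in the order of rising ratio, the median RelA signal of the members was 13.2, 9.77, 5.09 and 1.91 RPKM in RelBko and 14.9, 13.9, 10.3 and 6.37 RPKM in WT. The median WT RelB signal at 1 h was 33.7, 38.3, 36 and 30.4 RPKM. A lower WT RelA signal at a higher ratio follows from how the ranges were made, so these values are a description. The 110 strong regions with a ratio under 0.5 had 54.1 RPKM of RelA in RelBko.

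**Figure D3:**
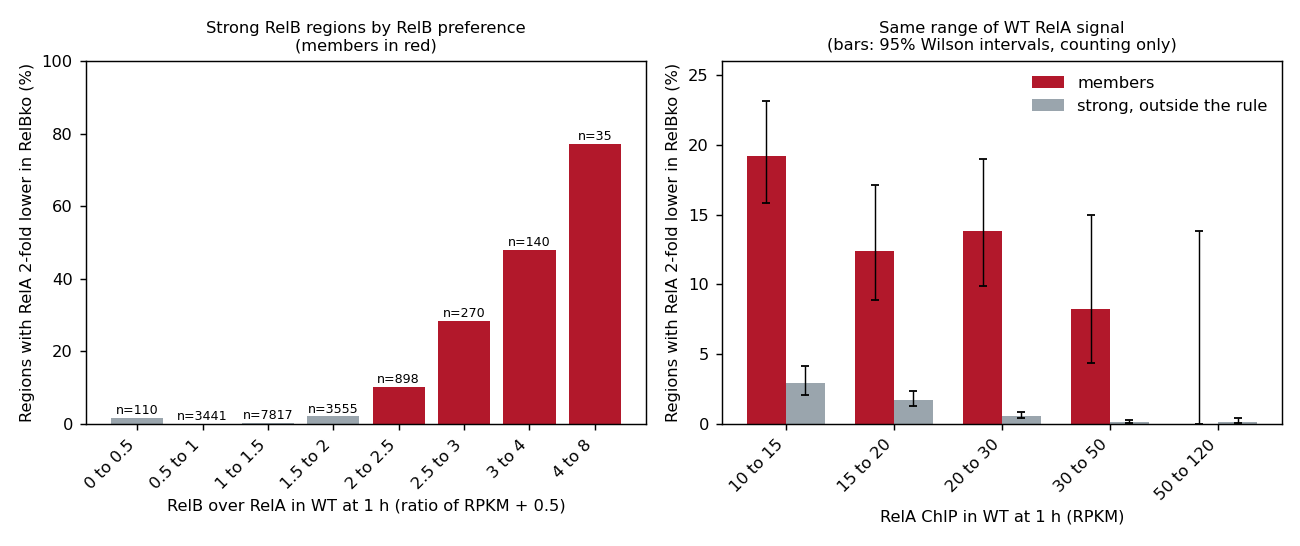
Share of strong RelB regions with RelA at least 2-fold lower in RelBko, in percent, left by the RelB over RelA ratio in WT (members in red, other strong regions in grey, n above each bar) and right by WT RelA signal, with 95% Wilson intervals that cover counting only. The share reaches 77.1% at ratios of 4 to 8, and members stand above the other strong regions in each range from 10 to 50 RPKM.

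The member with the lowest ratio lay near Abhd2, which encodes a membrane serine hydrolase, at chr7:86411161-86411512 (mm9). RelA signal there was 0.237 RPKM in RelBko (2 reads) and 10.2 RPKM in WT (63 reads), a ratio of reads of 0.0233 (interval 0.00276 to 0.0878). RelB signal was 0.437 RPKM in RelBko and 41.5 RPKM in WT at 1 h, 0.65 RPKM in RelBko and 39.6 RPKM in WT at 0 h, and the input had 0.646 RPKM. At 1 h neither antibody gave more signal there than the input in RelBko, while in WT both did. Near Plekhm1, an adaptor for the fusion of lysosomes, the region chr11:103362196-103362541 had 0.241 RPKM of RelA in RelBko and 9.04 RPKM in WT (ratio 0.0267, 0.00315 to 0.101).

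Dmbt1, a secreted scavenger receptor glycoprotein, had a member at chr7:138143300-138143637 with 0.988 RPKM of RelA in RelBko and 17.8 RPKM in WT (ratio 0.0554, 0.0233 to 0.113). Its RelB signal was 1.21 RPKM in RelBko and 56.4 RPKM in WT at 1 h. An intron of Cdc14a, a protein phosphatase, had 0.988 RPKM of RelA in RelBko and 16.3 RPKM in WT (chr3:116038445-116038782, ratio 0.0606, 0.0254 to 0.124). Their WT RelA signal stood above the members' median of 14.1 RPKM.

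Slco5a1, of the organic anion transporter family, had a member in an intron at chr1:12866076-12866498 with 0.592 RPKM of RelA in RelBko and 11.2 RPKM in WT (ratio 0.0531, 0.0189 to 0.121). RelB signal there was 0.849 RPKM in RelBko and 59.7 RPKM in WT at 1 h, and 0.541 RPKM in RelBko and 36.1 RPKM in WT at 0 h. Another member of the gene, between genes at a deposited distance of -16099 bp, had 5.99 RPKM of RelA in RelBko and 9.91 RPKM in WT (ratio 0.605, 0.417 to 0.874). The 2 members of this gene thus differed in RelA ratio beyond their counting intervals.

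The remaining members among the 10 with the lowest ratio lay near 2410089E03Rik, Jcad, Fam209, Ifrd2 and Eif4a2. Jcad encodes a protein of endothelial junctions and Eif4a2 an RNA helicase of translation initiation. Their RelA signal ran between 0.33 and 1.06 RPKM in RelBko and between 7.03 and 12.6 RPKM in WT. Of these 10 members 3 lay in introns and 7 between genes, and none in a promoter.

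**Figure D4:**
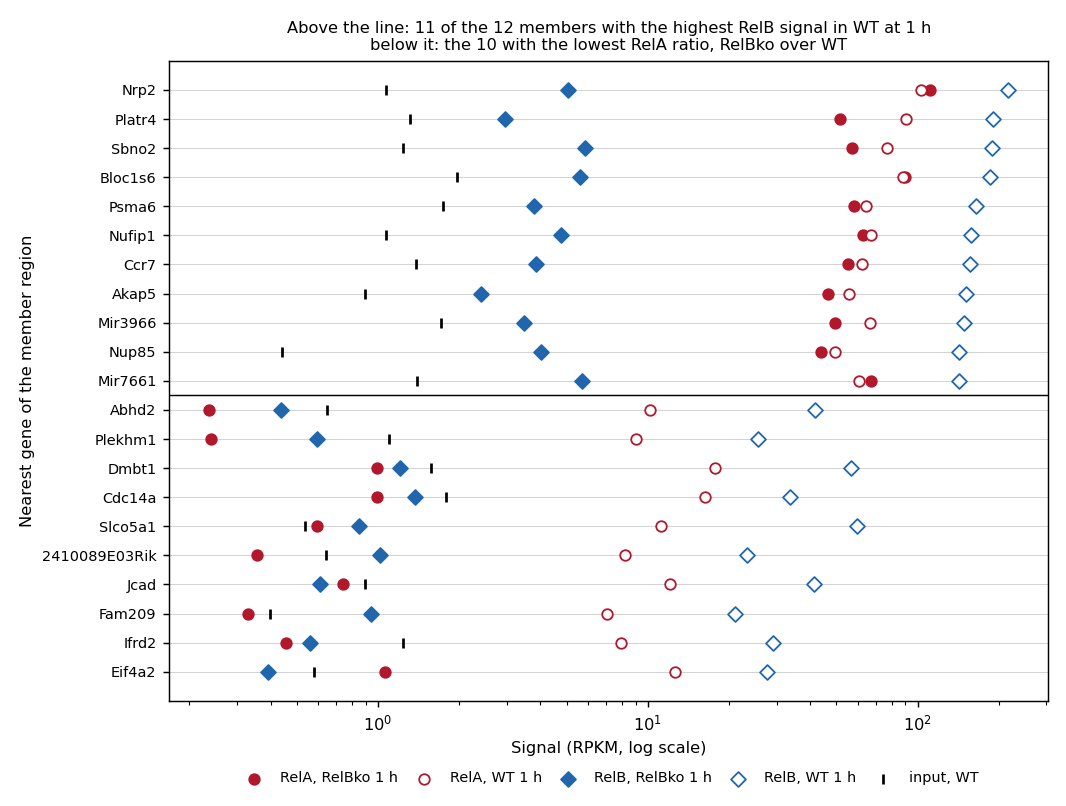
Signal (RPKM, log scale) at 11 of the 12 members with the highest WT RelB signal at 1 h (above the line) and the 10 with the lowest RelA ratio (below it), with RelA in red, RelB in blue, filled symbols for RelBko, open symbols for WT and a tick for input. Red filled and open symbols lie close together above the line and far apart below it, where RelBko values are near the input.

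At the other end, 3 members had at least 2-fold more RelA in RelBko. The region near Rara, the retinoic acid receptor alpha, had 34.6 RPKM in RelBko (141 reads) and 13.7 RPKM in WT (41 reads) at chr11:98794656-98794825 (ratio 2.53, 1.77 to 3.67). Its input was 3.57 RPKM, above the 5th to 95th percentile range of the members, 0.407 to 2.08 RPKM. An intron of Zfp592, a zinc finger protein, had 18.3 RPKM in RelBko and 8.82 RPKM in WT (ratio 2.07, 1.52 to 2.86), also with a high input of 3.15 RPKM. The third lay near Zfp366, the zinc finger protein known as DC-SCRIPT in dendritic cells, with 25.1 RPKM in RelBko and 12.2 RPKM in WT (chr13:100032217-100032584, ratio 2.05, 1.58 to 2.69). With regions of 2 RPKM or more in the input left out, only the Zfp366 member of these 3 remained.

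The next highest ratios were below 2-fold on the log2 scale with 0.5 RPKM added. They lay near Mirt1, Ptger2, Pcmtd1, Clec4d, Plxnc1, App and Slc7a11. Ptger2, a receptor for prostaglandin E2, had 23.2 RPKM of RelA in RelBko and 12 RPKM in WT (ratio 1.94, 1.49 to 2.54). Clec4d, a C-type lectin of myeloid cells, had 16.2 RPKM in RelBko and 8.98 RPKM in WT (ratio 1.81, 1.31 to 2.53). Slc7a11, the cystine transporter, had 21.6 RPKM in RelBko and 12.7 RPKM in WT (ratio 1.7, 1.15 to 2.56).

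None of the 12 members with the highest RelB signal had 2-fold less RelA in RelBko. Near Nrp2, a receptor for semaphorins and VEGF, the region chr1:62735680-62736034 had 217 RPKM of RelB at 1 h in WT, the highest value of any member, and 5.06 RPKM in RelBko. RelA there was 111 RPKM in RelBko and 103 RPKM in WT (ratio 1.08, 0.971 to 1.19), so the genotypes did not differ beyond counting error. RelB at 0 h was 11.3 RPKM in RelBko and 262 RPKM in WT.

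Ccr7 encodes the chemokine receptor that guides mature dendritic cells to lymph nodes. Its member, at chr11:99029327-99029711 and a deposited distance of -13128 bp, had 156 RPKM of RelB in WT at 1 h, against 62 RPKM of RelA. RelA was 55.1 RPKM in RelBko (ratio to WT 0.888, 0.779 to 1.01). RelB was 14.6 RPKM in RelBko and 149 RPKM in WT at 0 h, and 14.6 RPKM was the highest value of any member in that RelBko library. Of the 13 regions assigned to Ccr7 within 100 kb of its start, 10 were strong for RelB and this was the only member.

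Among the 12 members with the highest RelB signal, the lowest RelA ratio was that near Platr4, a long noncoding RNA, with 51.4 RPKM in RelBko and 90.2 RPKM in WT (ratio 0.57, 0.501 to 0.648). Sbno2, a co-regulator in the interleukin 10 response, had 56.9 RPKM in RelBko and 77.2 RPKM in WT (0.737, 0.65 to 0.836). The region near Mir3966 had 49.2 RPKM in RelBko and 66.8 RPKM in WT (0.736, 0.641 to 0.845). These 3 intervals lay below 1. Another 7 lay near Bloc1s6, a subunit of a complex for lysosome-related organelles, Psma6, a proteasome subunit, Nufip1, Akap5, an anchor for protein kinase A, Nup85, a nuclear pore subunit, and Mir7661, besides Ccr7, with ratios between 0.831 and 1.11.

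The 8 members with the highest RelB over RelA ratio in WT, which the rule used, lay near Ergic1, Elf1, Vps39, Cast, 4930545L23Rik, Cd6, E230016M11Rik and Slco5a1. Their RelA signal in RelBko took different courses. Elf1, a transcription factor of the ETS family, had 112 RPKM of RelB and 19.1 RPKM of RelA in WT, a ratio of 5.74 after 0.5 RPKM was added. RelA was 19 RPKM in RelBko (chr14:79907709-79908086, ratio to WT 0.994, 0.786 to 1.26). Vps39, a subunit of the complex that tethers endosomes to lysosomes, had 34.6 RPKM of RelB and 5.72 RPKM of RelA in WT, with 1.36 RPKM of RelA in RelBko (ratio to WT 0.238, 0.109 to 0.48). Near Ergic1, a membrane protein of the secretory pathway, RelA was 0.446 RPKM in RelBko and 3.95 RPKM in WT (0.113, 0.0287 to 0.326), and in an intron of Cd6, a scavenger receptor of lymphocytes, 0.239 RPKM in RelBko and 4.89 RPKM in WT (0.049, 0.00567 to 0.193). A high RelB over RelA ratio was therefore seen both at members that kept their RelA signal and at members that did not.

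RelB remained above RelA at most members when RelA was read in RelBko, a library the rule did not use. WT RelB at 1 h was at least 2-fold above RelBko RelA at 1128 members (84%), with 14.6% of all compared regions as the background and 8.16% of the other strong regions. WT RelB at 0 h against RelBko RelA, of which neither library was used by the rule, was at least 2-fold higher at 1005 members (74.9%), at 10.6% of the other strong regions and at 16.3% of all compared regions. The first of these ratios holds WT RelB at 1 h, which chose the members. Both set WT against RelBko, and the second also 0 h against 1 h, so neither compares RelB with RelA in the same cells. The ratio compares different antibodies and is not a ratio of bound molecules.

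The RelB libraries at 0 h, also outside the rule, gave the comparison of genotypes before stimulation. All 1340 members compared had at least 2-fold less RelB signal in RelBko than in WT, against 86% of all compared regions and 99.1% of the other strong regions, so the count says little about the members. The median log2 ratio of RelBko over WT was -3.76 in the members, -2.67 in the other strong regions and -1.85 over all compared regions. The medians behind it were 2.02 RPKM in RelBko and 33.9 RPKM in WT in the members, and 4.2 RPKM in RelBko and 28 RPKM in WT in the other strong regions. With equal reads over the regions, 570 of 669 members were lower and the median was -1.98. The rule's own ratio at 1 h, which runs the other way as WT over RelBko, had a median log2 of 4.33 in the members and 3.65 in the other strong regions.

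Signal of the RelB antibody that remained in RelBko at 0 h was enriched over input at 464 members (34.5%), against 69.7% of the other strong regions and 24.1% of all regions. In WT at 0 h, 1340 members (99.8%) were enriched, against 75.9% of all regions. The remaining RelBko signal differed with the fate of RelA. Of the 263 members with lower RelA, 15 (5.7%) were enriched with the RelB antibody in RelBko at 0 h, and of the 1076 within 2-fold, 448 (41.6%) were. The median RelBko RelB signal at 0 h was 1.1 RPKM in the 263 and 2.4 RPKM in the 1076. At 1 h it was 0.91 RPKM in the 263 and 1.49 RPKM in the 1076, and the input had 0.897 RPKM in the 263 and 1.05 RPKM in the 1076. What the antibody recovered in RelBko was not tested.

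The 263 members were then set beside the 1076 compared members within 2-fold. RelB in WT at 1 h had a median of 33 RPKM in the 263 and 35.5 RPKM in the 1076. RelA in RelBko, by which they were divided, had a median of 3.3 RPKM in the 263 and 13.4 RPKM in the 1076, and RelA in WT 11.3 RPKM in the 263 and 15 RPKM in the 1076. The median length was 363 bp in the 263 and 360 bp in the 1076, and the promoter share was 3.42% in the 263 and 2.97% in the 1076. RelB in WT at 0 h was lower in the 263, with a median of 26.7 RPKM against 35.8 RPKM in the 1076.

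WT RelB signal of the members stood at a similar level at 1 h and at 0 h in the median. The log2 ratio of 1 h over 0 h had a median of 0.08 in the members, 0.20 in the other strong regions and 0.14 over all compared regions. The sign of the members' median depended on the scale: it was -0.03 with equal reads, -0.04 with a median ratio of 1 and -0.02 when scaled on regions without enrichment. RelB was at least 2-fold higher at 1 h at 136 members (10.1%), against 11% of all compared regions, and at least 2-fold lower at 13 (0.968%), against 1.68%. Of the 263 members with lower RelA, 45 (17.1%) were higher at 1 h, with a median log2 ratio of 0.36, and of the 1076 within 2-fold, 91 (8.46%) were, with a median of 0.02. Among members near the listed genes, Cd86 had the largest ratio, with 81.6 RPKM at 1 h and 11.6 RPKM at 0 h (log2 ratio 2.77), and Cxcl16 the lowest, with 24.2 RPKM at 1 h and 53.2 RPKM at 0 h (-1.12).

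Members lay away from promoters. By the deposited annotation 41 members (3.05%, interval 2.26 to 4.12) were in promoters, against 14.3% of the other strong regions (13.7 to 14.8) and 11% of all regions. Introns held 625 members (46.5%) and intergenic sequence 629 (46.8%), against 42.3% and 38.6% of the other strong regions. The median distance to a transcription start site (TSS) was 24.1 kb in the members, 13.1 kb in the other strong regions and 18.4 kb over all regions. Within 1 kb of a TSS lay 4.24% of the members and 20.2% of the other strong regions, and 182 members (13.6%) lay over 100 kb away. Among strong regions the promoter share was 28% at RelB over RelA ratios of 0.5 to 1, 12% at 1 to 1.5, 5.12% at 1.5 to 2, 3.23% at 2 to 2.5, 2.59% at 2.5 to 3, 2.14% at 3 to 4 and 5.71% of 35 regions at 4 to 8.

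The share of members with lower RelA was similar in the main classes. RelA was at least 2-fold lower in RelBko at 9 of the 41 promoter members (22%), at 123 of the 625 in introns (19.7%) and at 123 of the 629 between genes (19.6%). In the other strong regions the same shares were 0.188%, 0.919% and 0.78%.

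**Figure D5:**
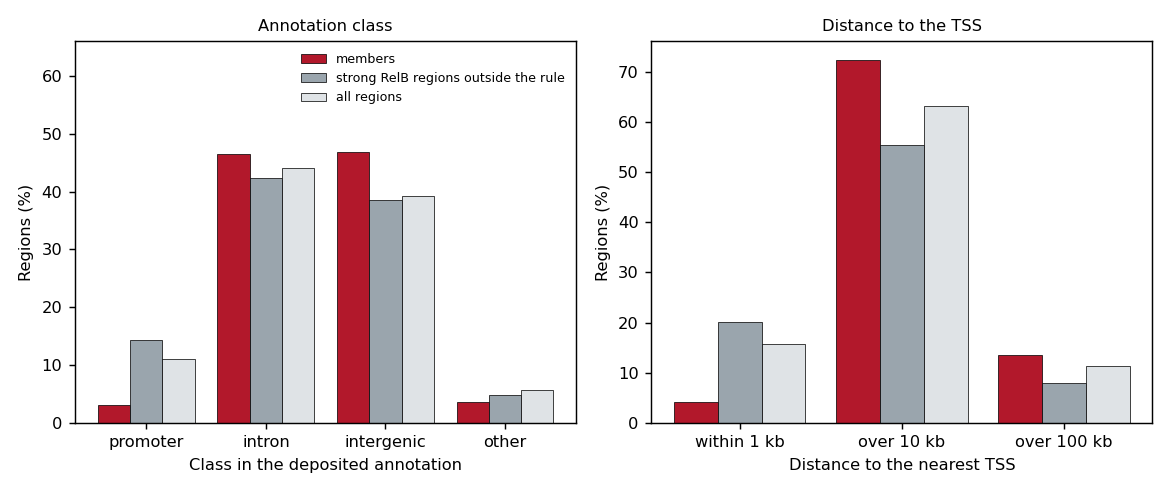
Share of regions (%) by class in the deposited annotation (left) and by distance to the nearest TSS (right) for the 1343 members, the 14923 other strong RelB regions and all 93611 regions. Promoters hold 3.05% of the members and 14.3% of the other strong regions.

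Among the promoter members with the highest RelB signal, the one at Cd63 was at chr10:128346296-128346614. RelB signal was 0.965 RPKM in RelBko and 109 RPKM in WT at 1 h, and 1.43 RPKM in RelBko and 87.3 RPKM in WT at 0 h. RelA was 8.77 RPKM in RelBko and 29.2 RPKM in WT (ratio 0.3, 0.222 to 0.401). There were 3 other regions assigned to Cd63 within 100 kb. Of these, 2 also had at least 2-fold less RelA in RelBko, against 4.94% of all compared regions. At Cx3cr1, outside the rule for named regions, RelA was 3.42 RPKM in RelBko and 12.4 RPKM in WT (ratio 0.275, 0.175 to 0.424), with 34.4 RPKM of RelB in WT at 1 h. The promoter of Gm20257, an annotated gene model, had 6.67 RPKM of RelA in RelBko and 24 RPKM in WT (ratio 0.278, 0.215 to 0.355).

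RelA at the other promoters named was within 2-fold. The Il4i1 promoter had 2.12 RPKM of RelB in RelBko and 132 RPKM in WT at 1 h, with 41.2 RPKM of RelA in RelBko and 57.4 RPKM in WT (chr7:52091410-52091723, ratio 0.718, 0.612 to 0.842). The Tlr9 promoter had 36.2 RPKM of RelA in RelBko and 29.8 RPKM in WT (chr9:106124727-106125058, ratio 1.22, 1 to 1.48), and 64.8 RPKM of RelB in WT at 1 h. At C3ar1, RelA was 18 RPKM in RelBko and 21.5 RPKM in WT (ratio 0.836, 0.656 to 1.07). The intervals of Cd63 and Cx3cr1 lay below 1, and so did that of Il4i1. These promoters were grouped by this same ratio, so the distance of Cd63 and Cx3cr1 from Tlr9, C3ar1 and Il4i1 follows from that choice.

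Lower ratios with intervals below 1 were found at Gatsl2 (0.7, 0.61 to 0.803) and at Cytip, a regulator of adhesion in dendritic cells (0.592, 0.472 to 0.743). At Pigx, of glycolipid anchor synthesis, Ptdss2, a phosphatidylserine synthase, Rpsa, a ribosomal protein, Ing2, a reader of histone methylation, and Uba7, the activating enzyme for ISG15, the ratios ran between 0.915 and 1.12, with intervals that held 1.

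The 1343 members were assigned to 1154 nearest genes, of which 154 had at least 2 members and 29 at least 3. The genes with 4 members were Zc3h12c, Zfp366, Slc38a2, Jun, Mark2 and Abhd2, and Dthd1 and Cd200 with 3 came next by RelB signal. At Abhd2 all 4 members had at least 2-fold less RelA in RelBko, with ratios of 0.0233, 0.0834, 0.242 and 0.384. Their RelA signal ran between 0.237 and 3.97 RPKM in RelBko and between 6.83 and 13.6 RPKM in WT. The 13 other regions assigned to Abhd2 within 100 kb of its start had a median log2 ratio of 0.07, and none was called lower. The 4 members thus stood apart from the regions around them.

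At other genes the members differed among themselves. Zc3h12c, an RNase of the Regnase family, had members with RelA ratios of 0.381, 0.4, 0.973 and 1.01, so that 2 were at least 2-fold lower and 2 near their WT level. Slc38a2, an amino acid transporter, had ratios of 0.267, 0.535, 0.949 and 1.12. Jun, a subunit of AP-1, had ratios of 0.319, 0.631, 0.693 and 0.707, the lowest at a deposited distance of -46146 bp with 3.7 RPKM in RelBko and 11.6 RPKM in WT. At Mark2, a polarity kinase, the ratios ran between 0.674 and 1.14, and at Zfp366 between 0.613 and 2.05. At Cd200, a surface ligand that restrains myeloid cells, they were 0.595, 0.799 and 1.13, and at Dthd1 0.878, 1.14 and 1.32.

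Regions next to the members were set beside all compared regions, of which 4.94% had at least 2-fold less RelA in RelBko. Of the 263 members with lower RelA, 135 had a neighbour within 5 kb that was no member, and 26 of these neighbours (19.3%) had at least 2-fold less RelA in RelBko, with a median log2 ratio of -0.37. Of the members within 2-fold, 632 had such a neighbour, and 23 (3.64%) were lower, with a median of -0.05. The neighbours also differed in WT RelA signal, with medians of 9.18 RPKM beside the 263 and 14.7 RPKM beside the members within 2-fold. The shares are therefore a description. There were 54 pairs of members within 5 kb of each other. With these merged, 19.2% of the members had lower RelA.

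Gene lists were read from member regions within 100 kb of a TSS, beside the 7.79% of strong RelB regions that were members over all genes. Of the 32 dendritic cell maturation genes, 11 had a member, in 13 of 143 strong regions (9.09%), with a median log2 RelA ratio of -0.26 against -0.32 over all genes. Only the member at Ido2, a tryptophan-degrading enzyme, was at least 2-fold lower, with 17.3 RPKM of RelA in RelBko and 37.2 RPKM in WT (ratio 0.465, 0.374 to 0.577). Cd86, a co-stimulatory ligand, had 30.1 RPKM in RelBko and 36.3 RPKM in WT (0.831, 0.69 to 1). Cd274, which encodes the inhibitory ligand PD-L1, had 31.7 RPKM in RelBko and 26.7 RPKM in WT (1.18, 0.981 to 1.43). Pdcd1lg2, which encodes PD-L2, had 12.3 RPKM in RelBko and 12.4 RPKM in WT (0.992, 0.727 to 1.36). Arhgap31, a regulator of small GTPases, had a ratio of 0.539 (0.42 to 0.689), Adcy6, an adenylate cyclase, 1.22 (0.902 to 1.66) and Samsn1, an adaptor, 1.04 (0.851 to 1.26). Over all genes, 231 of the 1161 members within 100 kb of a TSS were at least 2-fold lower. A count of 1 in 13 members is therefore too small to set this list apart. The same background and limit apply to the lists below, each of which held fewer members.

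Of the 18 lists, genes of endosomes, lysosomes and vesicle traffic had the largest share of members among strong regions, 9 of 65 (13.8%), at 6 of 25 measured genes. Beside Cd63, the member near Rab11a, a GTPase of recycling endosomes, was at least 2-fold lower, with 5.91 RPKM of RelA in RelBko and 20.5 RPKM in WT (chr9:64614467-64614876, ratio 0.288, 0.209 to 0.392). Rab8b, a GTPase of transport to the plasma membrane, had 3 members with ratios of 0.492, 0.514 and 1.22. Atp6v1a, a subunit of the proton pump of lysosomes, and Rab10 had ratios of 1.02 (0.749 to 1.39) and 1.14 (0.798 to 1.65), and the members of Tmem176a had ratios of 0.878 and 0.874.

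In the NF-kB pathway list 5 of 25 genes had a member, in 7 of 117 strong regions (5.98%), and none of the 7 was at least 2-fold lower, against 231 of 1161 members over all genes. Tnip3, an inhibitor of NF-kB signalling, had 36.1 RPKM of RelA in RelBko and 26 RPKM in WT at its stronger member (ratio 1.39, 1.15 to 1.68). Nfkb1, which encodes p50, had ratios of 0.866 (0.706 to 1.06) and 1.49 (1.19 to 1.86) at its members, Otulin, a deubiquitinase, 0.549 (0.401 to 0.749), Ikbke, a kinase, 0.671 (0.504 to 0.894) and Tnfaip3, the feedback inhibitor A20, 0.553 (0.383 to 0.796). Of 12 noncanonical NF-kB and lymphoid chemokine genes 2 had a member, in 2 of 34 strong regions (5.88%). Tnfsf11, the ligand RANKL, had 6.15 RPKM of RelA in RelBko and 14.7 RPKM in WT (ratio 0.418, 0.293 to 0.593), and Tnfrsf11a, its receptor RANK, had 14 RPKM in RelBko and 18 RPKM in WT (0.781, 0.608 to 1). The ligand's member was lower and the receptor's was within 2-fold.

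Of 33 inflammatory cytokine and chemokine genes 6 had a member, in 6 of 118 strong regions (5.08%). Il6 had 11.4 RPKM of RelA in RelBko and 23.4 RPKM in WT at chr5:30325932-30326358 (ratio 0.488, 0.383 to 0.62), and RelB there was 2.28 RPKM in RelBko and 69.8 RPKM in WT at 1 h. Cxcl16, a chemokine bound to the membrane, had 3.24 RPKM in RelBko and 8.12 RPKM in WT (0.399, 0.249 to 0.629). Both were called lower. Il1rn, the antagonist of interleukin 1, had a ratio of 0.483 (0.331 to 0.699), under 2-fold once 0.5 RPKM was added, and Tnfsf15 a ratio of 1.65 (1.26 to 2.17). Csf1, the macrophage growth factor, and Il10, an anti-inflammatory cytokine, had ratios of 0.81 (0.625 to 1.05) and 0.986 (0.758 to 1.29). Of 31 interferon genes only Irf2, a repressor of interferon genes, had a member, in 1 of 49 strong regions (2.04%). The ratio of Irf2 was 0.57 (0.414 to 0.782).

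The lipid and nuclear receptor list had members at 5 of 19 genes, in 6 of 55 strong regions (10.9%). Ch25h, which makes 25-hydroxycholesterol, had 5.28 RPKM of RelA in RelBko and 14.2 RPKM in WT (ratio 0.371, 0.255 to 0.535). Abcg1, a cholesterol exporter, had ratios of 0.714 and 1.22. With Rara, this list held members called lower and a member called higher in RelBko.

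Of 35 genes of migration, actin and adhesion 6 had a member (6 of 138 strong regions, 4.35%). Of these members 3 were at least 2-fold lower, against 231 of 1161 over all genes, and so few cannot set this list apart. Itgb1, the integrin beta 1 chain, had 1.6 RPKM of RelA in RelBko and 8.33 RPKM in WT (ratio 0.192, 0.0924 to 0.367). Dock10 and Dock8, which activate small GTPases, had ratios of 0.416 (0.321 to 0.536) and 0.437 (0.264 to 0.713). Coro1a, an actin regulator, Cdc42 and Myo1e, a myosin, had ratios of 0.927, 0.788 and 1.1.

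In the toll-like receptor and MAP kinase list 4 of 29 genes had a member (5 of 48 strong regions, 10.4%), with none of the 5 called lower, against 231 of 1161 members over all genes. Beside Tlr9, Ly96, the co-receptor of the LPS receptor, had ratios of 1.4 (1.16 to 1.69) and 0.598 (0.473 to 0.754), and Ripk2, a kinase of innate immune signalling, had 0.983. In the AP-1 and immediate early list 5 of 31 genes had a member (7 of 134 strong regions, 5.22%), with the Jun region above the only one called lower. Dusp1, a phosphatase of MAP kinases, had 34.2 RPKM of RelA in RelBko and 46.1 RPKM in WT (0.742, 0.63 to 0.873), with 119 RPKM of RelB in WT at 1 h. Egr2, Zfp36l1 and Klf6 had ratios of 0.742, 0.842 and 1.27. The myeloid and dendritic lineage list had members at 4 of 25 genes (4 of 132 strong regions, 3.03%), with ratios of 0.927 at Flt3, 0.621 at Etv6, 0.918 at Batf3 and 1.04 at Irf8.

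The remaining lists held at most 2 members each, beside a share of 7.79% of strong regions over all genes. Pim3, a survival kinase, was the only one of 21 survival and stress genes with a member (1 of 70 strong regions, 1.43%). Its ratio was 0.487 (0.352 to 0.67). B2m, the light chain of MHC class I, was the only one of 18 antigen presentation genes (1 of 40 strong regions, 2.5%). The ratio of B2m was 1.54 (1.05 to 2.29). B2m and Gusb (1.23) were the only ones of 19 housekeeping genes (2 of 39 strong regions, 5.13%). Among markers of other cell types, Tcf7 was the only one of 12 T and NK cell genes with a member (1 of 12 strong regions, 8.33%). The ratio of Tcf7 was 0.706 (0.509 to 0.98). The 11 neutrophil, 9 B cell and 7 erythroid and mast cell genes measured had none, with 3, 1 and 3 strong RelB regions in all.

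Regions at the edges of the rule had like values on both sides. Just inside the threshold of 20 RPKM were regions near Rab10 (20.042 RPKM), Gfod1 (20.055 RPKM) and Has3 (20.062 RPKM), and just outside regions near Gm15326 (19.988 RPKM), Tnip1 (19.988 RPKM) and Cyr61 (19.984 RPKM). RelA in RelBko was 10.2, 5.72 and 10.9 RPKM in those inside and 8.94, 8.67 and 9.51 RPKM in those outside. Just inside the RelB over RelA ratio of 2 lay regions near Atp11a (2.0002), Ffar3 (2.0004) and Rab8b (2.0005), and just outside near 1700001G01Rik (1.9997), B930018H19Rik (1.9995) and Ccdc88a (1.9993). The lowest ratio of WT over RelBko for RelB at 1 h among members was 3.71, at Pisd-ps3, followed by Rab27a (6.1426) and Pcmtd1 (6.1607). A further 4818 regions failed the RPKM threshold alone.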

How the data were processed

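The authors deposited RPKM values for 7 libraries over 93611 regions with coordinates, nearest gene, annotation class and distance to the TSS, per the file headers. HISAT2, HOMER and bedtools, and the build mm9, are named in the submitters' processing notes; tool versions and roles and the choice of regions are not given in the sources used for this work. Starts were counted from 1. RPKM times length was a whole multiple of its smallest value in each library (100% of values within 0.01 read), which gave reads and library totals; no value lay under 1 read, so reads may be 1 too high. From these, ratios were taken with 0.5 RPKM added, regions enriched (2 RPKM and 2-fold over input) in either library were compared, and 2-fold differences were called. Ratios of reads have exact Clopper-Pearson 95% intervals and shares Wilson 95% intervals, for counting error only. No test was possible with 1 library per group. The calculations were tested on simulated data and run in Python 3.11.15 with pandas 2.3.3, numpy 2.4.6, SciPy 1.17.1 and matplotlib 3.10.9.

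Members, gene lists and named regions were chosen with earlier results of these data known. Named were the 12 members with the highest WT RelB signal at 1 h, the 10 with the highest and the 10 with the lowest RelA ratio, the 8 with the highest RelB over RelA ratio, the 12 promoter members with the highest RelB signal, the 8 genes with most members, up to 3 genes per list and 3 regions on each side of each threshold. Results for a few of these genes are not reported here. Other list genes, Cx3cr1 and the promoter sequences were added after their values were seen. The 18 lists held 401 genes, of which 387 matched symbols through a RefSeq table of GRCm38, used for names. Alternatives changed the pseudocount, the scale, the thresholds, the treatment of input and the merging of near members. The deposited file of region coordinates holds no measurement.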

Additional observations from a re-analysis of the deposited data

How the results depend on the processing

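Of 130 values recomputed under 13 alternatives, 73 stayed close to those reported, 54 moved and 3 changed sign; the causes were not tested unless the alternative itself sets the number of members. With libraries scaled to equal reads over the regions, 669 members remained, with RelA at least 2-fold higher in RelBko at 0, RelA enriched in RelBko at 589, WT RelB at 1 h at least 2-fold above RelBko RelA at 597, RelB at 0 h lower in RelBko at 570, and median log2 ratios of -0.52 (RelA, RelBko over WT), -1.98 (RelB at 0 h, RelBko over WT) and -0.03 (RelB, 1 h over 0 h). With a median ratio of 1 the same values were 755, 1, 670, 654, 680, -0.44, -2.14 and -0.04. Scaled on regions without enrichment, the medians were -0.26, -3.20 and -0.02. The RelB threshold of 10 RPKM gave 2491 members, 8 with RelA higher and 524 lower in RelBko, counts of 2056 (RelA enriched in RelBko), 2063 (WT RelB above RelBko RelA) and 2466 (RelB lower at 0 h), and -3.35 for RelB at 0 h; that of 40 RPKM gave 525, 0, 83, 509, 453, 525 and -4.10. A RelB over RelA ratio of 1.5 gave 4898 members, 5 with RelA higher, a median RelA ratio of -0.07, counts of 4792, 2097 and 4885, -3.28 for RelB at 0 h and a promoter share of 4.55%; a ratio of 3 gave 175, 0 higher and 94 lower, -1.17, counts of 121, 174 and 175, -4.27, and 0.13 for RelB at 1 h over 0 h. The RelB median at 0 h was -3.99 with a pseudocount of 0.1, -3.54 with 1, -3.85 with 1 read taken off and -4.40 with input subtracted; members with more RelA in RelBko numbered 1, 5 and 1 with a pseudocount of 1, input subtracted and high-input regions left out. The share of members with lower RelA in RelBko ran between 15.8% and 29.9%, except 6.9% at the ratio of 1.5 and 53.7% at the ratio of 3, and its count stayed within 1.5 times the reported one unless a threshold changed. No paired analysis was possible because each group held 1 library, and none could be left out.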

Other observations

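Members were also looked for around Relb, the gene that the RelBko genotype is named after. Of 134 strong RelB regions within 10 Mb of it, 1 was a member, against 8.26% of all strong RelB regions, and RelA at that member was at least 2-fold lower in RelBko.

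The nearest annotated gene was a microRNA gene at 34 members (2.53%), at 2.64% of the other strong RelB regions and at 3.02% of all regions. Near Samsn1, an adaptor gene with 1 member, 4 of 13 other compared regions assigned to the gene within 100 kb had at least 2-fold less RelA in RelBko. Near Slco5a1 both of the 2 other compared regions had. The share over all compared regions was 4.94%. Most other genes looked at in this way had no such region, so these counts are not typical of them.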
